A study of Glycine max with 11 samples.

Results

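The interval examined here runs from stage 7.2 to stage 7.3 of soybean seed maturation, in freshly harvested seeds. Its members were chosen by stage and treatment alone: the 2 libraries of fresh seeds at stage 7.2, 63 days after flowering, and the single library of fresh seeds at stage 7.3, 69 days after flowering, which makes 3 of the 11 libraries of the series. RNA came from whole seeds of the cultivar BRS284 (Glycine max), grown in the field and frozen at harvest. The other libraries are fresh seeds at stages 7.1, 8.1, 8.2, 8.3 and 9 and seeds of stage 7.2 dried after harvest, and of these only the fresh ones serve below, to place levels in time. Seeds were pooled from many plants at each stage, and nothing in the sources says how the 2 pools of stage 7.2 were separated, so p-values measure the spread between these libraries. Stage 7.3 had no replicate, and every test assumes that its library varies as those of stage 7.2 do.

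A legume seed first fills with storage proteins, oil and carbohydrate and later loses water. Between these phases it gains the means to survive the dry state, among them late embryogenesis abundant (LEA) proteins, small heat shock proteins (sHSPs) and the raffinose family of sugars, and a green embryo loses its chlorophyll. The hormones abscisic acid, gibberellin and ethylene act on this course, and transcription factors of the AP2/EREBP, heat shock factor, bZIP and auxin response factor families are among its known regulators.

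The 3 libraries held 34971702 and 31799644 counts at stage 7.2 and 20475504 at stage 7.3. Between 36129 and 40320 genes had a count, and the 10 highest genes took 13.5% to 14.8% of the counts. The defining seed genes were present in all 3 libraries, with LEA genes at 1.63% to 1.97% of the counts. Genes named for nodules and other organs took between 0.000801% and 0.000943%. Names were at hand for 2986 of the 56044 genes (5.33%). They come from the study's supplementary tables, 1 of which was used here only in part, and most of the rest come from a table the authors chose for a difference between stage 9 and dried seeds of stage 7.2. Because of the partial table, names reached 35% of the genes tested on chromosome 1, 10.3% on chromosome 2 and between 6.40% and 8.50% on the others, so that a ranking among named genes favours chromosome 1. The lists below hold only a part of each pathway, and that part is not a random one. Soybean has many near-identical gene pairs, whose levels are uncertain where reads were divided between copies. Most genes described below were taken by the naming rule given with the methods, and those that illustrate a list (Glyma.13G236600, Glyma.17G029200, Glyma.01G146600, Glyma.14G217700, Glyma.13G234200, Glyma.18G208800, Glyma.16G032600, Glyma.18G237700, Glyma.06G129400, Glyma.02G012600, Glyma.20G111000, Glyma.17G064900, Glyma.13G095300, Glyma.10G180500 and Glyma.06G076600) were chosen after their values were seen.

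Most of the transcriptome changed little over these 6 days, and a minority of genes changed clearly. Of 30984 genes tested, 951 were higher at stage 7.3 (3.07%) and 2978 were lower (9.61%), together 3929 (12.7%), at an adjusted p under 0.05 and at least a 2-fold difference in edgeR's quasi-likelihood test. Where the mean reached 100 normalized counts (reads divided by the size factor of the library) the directions were closer, with 482 higher (3.13%) and 713 lower (4.63%) of 15406. Of the 951 higher genes, 361 were called in all 8 planned other fits, and of the 2978 lower genes 398 were. No gene was called in the opposite direction by any of them. The fit with at least 10 counts in every library tested only 25430 genes, and an untested gene counts here as not called. Genes that fell under 10 counts at stage 7.3 could therefore not be among the 398. DESeq2 called 602 higher and 1136 lower, and with replicate 1 of stage 7.2 left out 1503 were higher. Genes with a name were called more often than all genes, with 259 of 2619 higher (9.89%) and 386 lower (14.7%), and the lists below, which hold named genes, are to be read against these shares too. Of the 87 genes taken by the naming rule and called, 41 lost the call in the fit over 11 libraries, which is not repeated at each gene.

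The direction of change followed the level of the gene. The median log2 fold change over all genes tested was -0.05. It was -0.81 for genes with a mean under 10 normalized counts, -0.42 from 10 to 30, -0.20 from 30 to 100, 0.01 from 100 to 300, 0.15 from 300 to 1000 and 0.24 at 1000 or more. In edgeR's test falls outnumbered rises by 320 to 26 in the lowest class, while 94 genes rose and 77 fell in the highest. DESeq2, fitted without edgeR's low-count filter, called 0 higher and 0 lower of 15152 genes under 10, with a median of -0.68. From 10 to 30 it called 14 higher and 162 lower. The filter decided which genes under 10 edgeR tested, and its part in their falls was not tested. When the libraries of stage 7.2 were thinned to the total of stage 7.3, a setting added after the data were seen, the highest class had a median of 0.24 and the class from 10 to 30 one of -0.43. The class under 10 then held 1580 tested genes in place of 3456, with a median of -1.07. The thinning matched total counts alone, and the cause of the pattern was not tested.

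**Figure D1:**
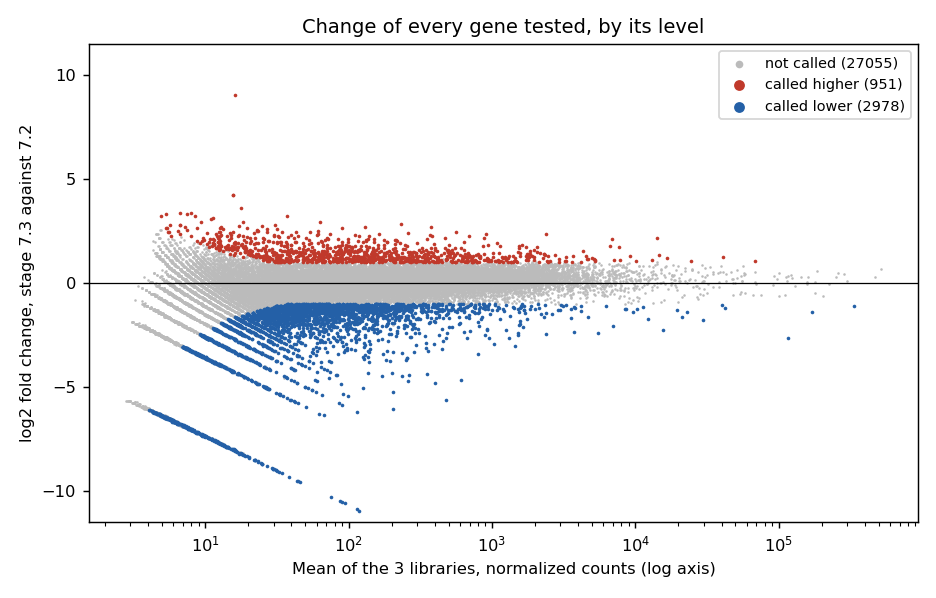
Each point is 1 of the 30984 genes tested, with its mean over the 3 libraries in normalized counts (log axis) against its log2 fold change from stage 7.2 to 7.3; red points were called higher (951) and blue points lower (2978). Falls dominate to the left, at low levels, and the directions balance at high levels; the lowest line of blue points holds genes with 0 counts at stage 7.3, whose fitted values are not bounds.

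The change between the stages was larger than the difference between the replicates. Over 17036 genes whose mean reached 100 normalized counts, here with size factors over the 3 libraries alone, the median absolute difference was 0.335 log2 units between stage 7.3 and the mean of stage 7.2. Between the replicates of stage 7.2 it was 0.119, which gives a ratio of 2.82. A difference of over 2-fold was found in 8.35% of these genes between stages and in 0.264% between replicates. Stage 7.3 lay above both libraries of stage 7.2 for 9404 genes and below both for 5773.

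**Figure D2:**
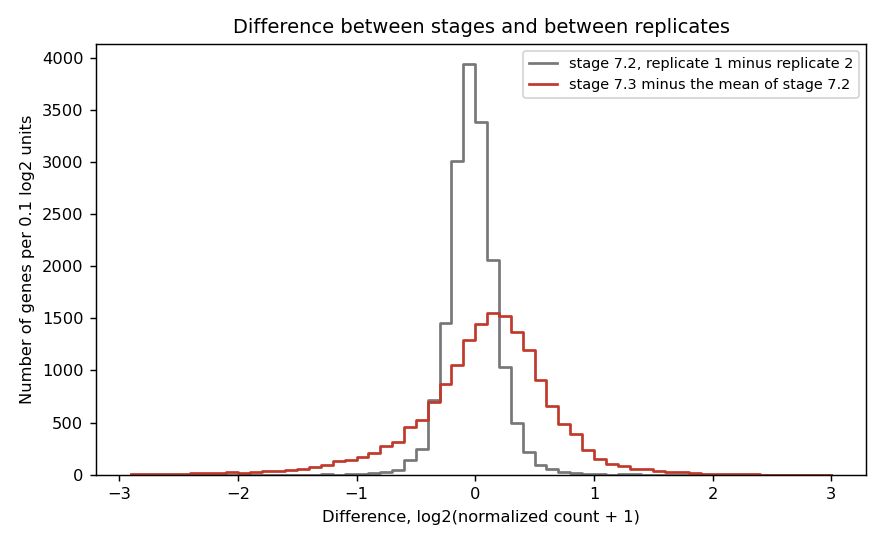
Number of genes (vertical axis) by the difference in log2(normalized count + 1), in steps of 0.1, over 17036 genes; the grey line compares the replicates of stage 7.2 and the red line stage 7.3 with their mean. The red curve is wider, with a median absolute difference of 0.335 against 0.119, and its peak lies to the right of 0.

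Transcription factors of the AP2/EREBP family, which includes factors of ethylene and drought responses, rose more often than the other factor families listed; the difference between families was not tested. Of 55 tested members (71 in the list), 14 rose (25.5%) and 3 fell (5.45%), with a median of 0.28, and 12 rose with DESeq2. The shares were 3.07% higher and 9.61% lower over all genes tested, and 9.89% and 14.7% over named genes. Their summed level was 20118 and 20996 normalized counts at stage 7.2 and 35235 at stage 7.3. The genes homologous to Arabidopsis ERF110, as the study names them, all rose. Glyma.08G145300 stood at 146.5 and 119.5 normalized counts in the libraries of stage 7.2 and at 863 at stage 7.3, a log2 fold change of 2.67 (SE 0.147, adjusted p = 2.84e-06). Glyma.04G217400 went from 227 and 206 to 978 (log2 fold change 2.16), and Glyma.06G148400 from 910.0 and 775 to 2944 (1.78). In each of these genes stage 7.3 lay far above both earlier libraries, and all fits called them.

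The ERF gene Glyma.09G041500 moved likewise, with 1129 and 871 normalized counts at stage 7.2 and 5134 at stage 7.3 (log2 fold change 2.34, SE 0.154, adjusted p = 5.68e-06). By stage 8.1 its level was 8359, and the libraries of stage 9 held 11138 and 10518. Glyma.13G236600, also an ethylene responsive factor, went from 617 and 506 to 2151. The steepest rise among all named genes with a mean of at least 100 belonged to Glyma.08G137600, a DREB2 gene; factors of this class bind the dehydration-responsive element. It had 49.8 and 42.3 normalized counts at stage 7.2 and 300.5 at stage 7.3 (log2 fold change 2.68, SE 0.182, adjusted p = 7.21e-06). Afterwards, stages 8.1 and 8.2 gave 325 and 35.0, the latter below both libraries of stage 7.2. Another DREB2 gene, Glyma.07G156200, went from 328 and 152 to 563 (log2 fold change 1.20, adjusted p = 0.0124), but its replicates differed and the call was lost with DESeq2, in the fit over 11 libraries and without replicate 2 of stage 7.2. Glyma.14G056200 went from 2323 and 2412 to 3869, a log2 fold change of 0.69 that passed the test (adjusted p = 0.0023) and not the 2-fold limit. The ERF gene Glyma.18G281400 moved the other way, from 48.6 and 68.3 normalized counts to 2.25, which is at least 17.3-fold lower against a floor of 3 counts.

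**Figure D3:**
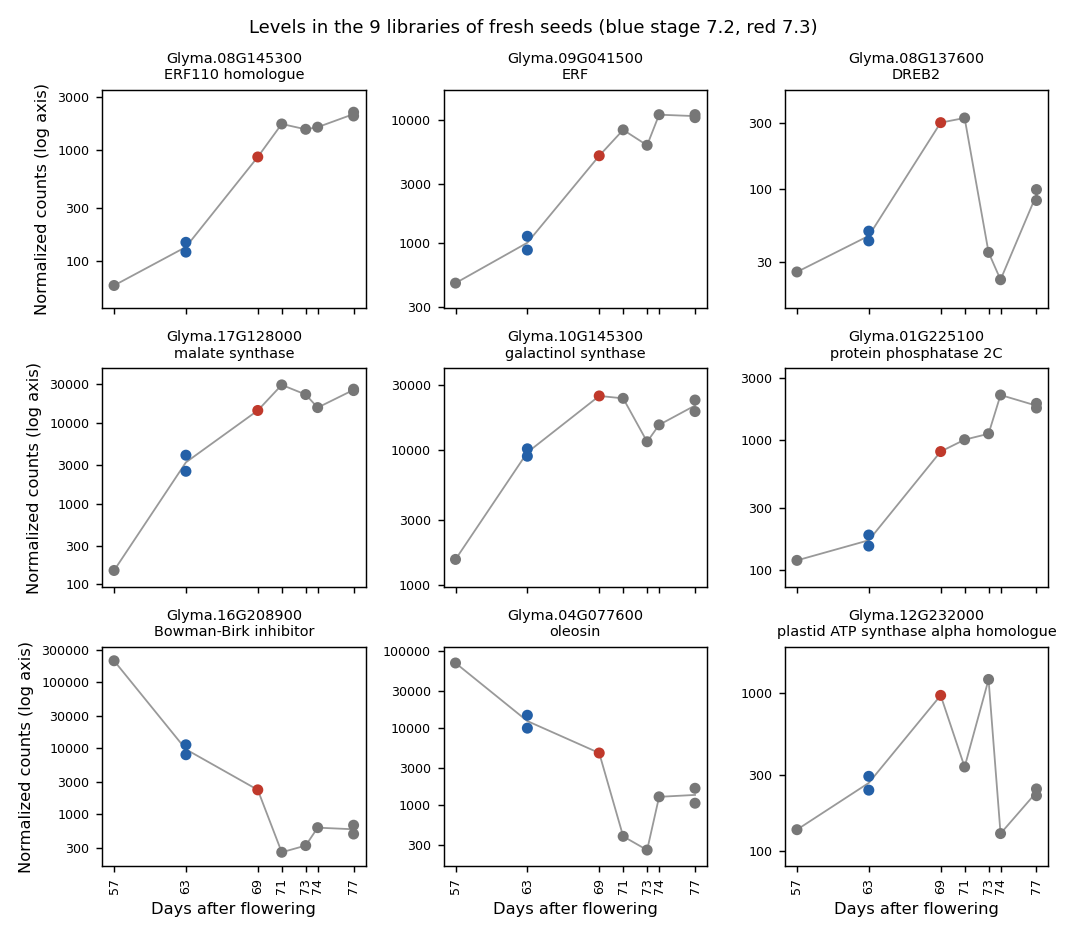
Normalized counts (log axis) of 9 genes in the 9 libraries of fresh seeds by days after flowering; blue points are the 2 libraries of stage 7.2, red points stage 7.3, grey points all others, and the line joins the stage means. The ERF genes, malate synthase and the protein phosphatase 2C stay high after stage 7.3, DREB2 drops after day 71, and the Bowman-Birk inhibitor and the oleosin are lower at stage 7.3 than in either library of stage 7.2.

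Genes of ethylene synthesis moved in opposite directions. Glyma.16G032200, a 1-aminocyclopropane-1-carboxylate (ACC) synthase, the enzyme of the committed step, had 93.9 and 117.5 normalized counts at stage 7.2 and 571 at stage 7.3 (log2 fold change 2.42, SE 0.158, adjusted p = 5.4e-06). Glyma.01G155400, an ACC oxidase, which makes ethylene from ACC, fell from 619 and 792 to 281 (log2 fold change -1.34, adjusted p = 0.000264). The ACC synthase level was back at 160 at stage 8.1, and that of the oxidase was 49.6. These were the only calls among 10 tested ethylene genes, 10% each way, against 9.89% higher and 14.7% lower among named genes. Of the EIN3-like factors, which act downstream of ethylene perception, Glyma.05G180300 went from 96.7 and 90.1 to 177 (0.90) and Glyma.02G274600 from 741 and 779 to 398 (-0.95), and both stayed under the 2-fold limit.

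Among 18 tested genes of abscisic acid response, 2 rose and 2 fell (11.1% each, against 9.89% and 14.7% of named genes). All of these were protein phosphatases 2C, a family of which some members repress abscisic acid signalling. Glyma.01G225100 had 153 and 186 normalized counts at stage 7.2 and 814 at stage 7.3 (log2 fold change 2.25, SE 0.142, adjusted p = 4.32e-06). Glyma.17G029200 went from 74.1 and 69.7 to 253. The fallers were Glyma.01G146600, from 107 and 98.3 to 37.1, and Glyma.01G199600, from 26.02 and 19.8 to 5.63, a call lost with DESeq2 (adjusted p = 0.266). The receptor gene Glyma.13G229300 (PYL6) stood at 4453, 5967 and 7126 and did not pass (adjusted p = 0.0823). Gibberellin genes gave 1 call, a fall, in 5 tested (20%, against 14.7% of named genes). Glyma.11G216500, which encodes a DELLA protein, a repressor of gibberellin responses, fell from 207 and 173 to 73.2 (log2 fold change -1.40). Glyma.07G168500, a gibberellin 20-oxidase of hormone synthesis, had 1341 and 1599 normalized counts at stage 7.2 and 886 at stage 7.3 (-0.75, adjusted p = 0.00263).

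In the auxin list 9 of 42 tested genes fell (21.4%, against 9.61% of all genes and 14.7% of named genes) and 2 rose, with a median of -0.52. Its members had a median level of 40.5 normalized counts, and 37 of the 58 had a mean under 100, where falls dominate among all genes. The risers were both homologues of Arabidopsis ARF19, an activating auxin response factor. Glyma.13G112600 went from 330 and 277 normalized counts to 909.5 (log2 fold change 1.56, adjusted p = 2.82e-05) and Glyma.09G072200 from 196 and 137 to 386 (1.19, adjusted p = 0.00122), a call lost without replicate 2 of stage 7.2. The fallers included 4 other auxin response factors, among them Glyma.14G217700, from 145 and 155 to 41.7, and Glyma.13G234200, from 133 and 144 to 47.3. Homologues of ARF4, ARF10 and ARF8 or ARF16 (Glyma.12G171000, Glyma.13G325200 and Glyma.10G210600) had log2 fold changes of -0.54, -0.79 and 0.11, and none was called. The other fallers were auxin-induced genes, of which Glyma.02G032500 had 39.0 and 35.5 normalized counts in the earlier libraries and 0 in the later one, at least 11-fold lower.

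In the other transcription factor families calls went both ways. WRKY genes gave 2 rises (8.70%) and 4 falls (17.4%) of 23 tested, and NAC genes 1 (11.1%) and 2 (22.2%) of 9. MYB genes gave 2 (7.14%) and 3 (10.7%) of 28, and bZIP genes 1 (4.17%) and 5 (20.8%) of 24. Among named genes the shares were 9.89% higher and 14.7% lower. The WRKY gene Glyma.18G208800 rose from 189.5 and 223 normalized counts to 768, whereas the WRKY27 gene Glyma.15G003300 fell from 99.0 and 129 to 21.4 (log2 fold change -2.42, adjusted p = 0.000281). The MYB133 genes Glyma.16G032600 and Glyma.18G237700 both rose, from 96.1 and 104.5 to 254 and from 119 and 97.7 to 264.5. In the bZIP list Glyma.01G042800 rose from 873 and 888 to 2013 (1.17). Glyma.11G114800, named for ATB2, fell from 417 and 377 to 76.5 (-2.40, adjusted p = 1.46e-05) and was at 15.99 at stage 8.1. Outside these families, the homologue of NFXL1, a zinc finger repressor (Glyma.09G173000), rose from 286 and 296 to 798 (1.44, adjusted p = 2.58e-05), a GATA factor (Glyma.17G228700) from 62.2 and 51.2 to 133 (1.20, a call lost with DESeq2 at an adjusted p of 0.0641), and the LOB domain gene Glyma.16G084000 from 429 and 372 to 1855 (2.19).

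Over the 454 tested factors of the authors' network table, 29 rose (6.39%) and 124 fell (27.3%), against 9.89% and 14.7% of named genes. Their median log2 fold change was -0.77. These factors were chosen by the authors for variation in these libraries, and their median level was 24.9 normalized counts, in the classes where falls dominate among all genes. The homologues of SOMNUS (Glyma.12G205700), INDETERMINATE DOMAIN1/ENHYDROUS (Glyma.02G058500), WRKY6 (Glyma.13G310100), JACKDAW (Glyma.10G051500), HECATE2 (Glyma.11G055300) and AINTEGUMENTA-LIKE 6 (Glyma.01G022500), all of which the study discusses, had log2 fold changes of 0.21, -0.47, -0.18, -0.02, 0.05 and -0.01. None of these was called.

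Galactinol synthases, which make the galactosyl donor for the raffinose family of sugars, rose, while the enzymes that use the donor did not. Glyma.20G094500 had 922 and 871 normalized counts at stage 7.2 and 2878 at stage 7.3 (log2 fold change 1.66, SE 0.119, adjusted p = 9.96e-06). Glyma.10G145300 had 8959 and 10168, then 25092 (1.37, SE 0.164, adjusted p = 0.00019). Both were called in all fits. The third, Glyma.03G229800, went from 379.5 and 377 to 700.1, a difference of 0.87 (adjusted p = 0.000508) that stayed under the 2-fold limit. The gene for the next enzyme, raffinose synthase (Glyma.06G179200), stood at 29089, 35386 and 26593 (log2 fold change -0.30, adjusted p = 0.289), and the gene annotated as galactinol-raffinose galactosyltransferase (Glyma.19G217700) at 45933, 53057 and 50425 (0.01, adjusted p = 0.981). In these 2 genes the value of stage 7.3 lay below or between those of stage 7.2.

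Malate synthase (Glyma.17G128000), an enzyme of the glyoxylate cycle, had 3978 and 2512 normalized counts at stage 7.2 and 14268 at stage 7.3 (log2 fold change 2.11, SE 0.217, adjusted p = 7.71e-05), and 29618 at stage 8.1. Pyruvate, phosphate dikinase (Glyma.07G253700), which interconverts pyruvate and phosphoenolpyruvate, went from 82.6 and 52.6 to 356 (2.36). A cytochrome P450 gene (Glyma.08G140600) went from 321 and 286 to 1464 (2.25). In the list of starch, sugar and amino acid supply 1 of 22 tested rose (4.55%) and 4 fell (18.2%), against 9.89% and 14.7% of named genes. The riser was starch synthase I (Glyma.06G129400), from 102 and 92.9 to 203, a call lost without replicate 2 of stage 7.2, and the fallers were starch synthase IIb, 2 amino acid transporters and a sucrose transporter. Beta-amylase Glyma.09G168300 stood at 20463 and 20511, then 33639 (0.70, adjusted p = 0.0124).

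Genes of seed filling were lower at stage 7.3. Of 12 storage and defence protein genes 6 fell (50%, against 14.7% of named genes) and none rose, with a median of -1.01. Their summed level was 47388 and 66192 normalized counts at stage 7.2 and 26200 at stage 7.3. The fallers were 5 Bowman-Birk inhibitors, seed proteins that block proteases, and a lectin. Glyma.16G208900 (Bowman-Birk isoinhibitor D-II) had 7796 and 11023, then 2293 (log2 fold change -2.05, SE 0.215, adjusted p = 8.67e-05). Glyma.09G158600 had 10772 and 14844, then 5400 (-1.26, adjusted p = 0.00116), and the lectin gene Glyma.02G012600 had 5915 and 9326, then 3535, a call lost with DESeq2. In 11 of the 12 genes stage 7.3 lay below both libraries of stage 7.2, and in none above both. Over the 17036 genes with a mean of at least 100 compared above, 5773 lay below both and 9404 above both. Replicate 1 of stage 7.2 was itself lower than replicate 2, with a median log2 difference of -0.45 over the list. Against replicate 1 alone only 1 of the 12 genes was called, against replicate 2 alone 7 were, DESeq2 called 3 and the fit over 11 libraries none, so the count rests on replicate 2.

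Seed oil genes moved alike, with 5 of 12 tested lower (41.7%, against 14.7% of named genes), none higher and a median of -0.90. Here too replicate 1 of stage 7.2 was lower than replicate 2, with a median log2 difference of -0.25 over the list. The fit over 11 libraries called 2 falls. Oleosins, which coat oil bodies, fell: Glyma.04G077600 had 9866 and 14509 normalized counts at stage 7.2 and 4692 at stage 7.3 (log2 fold change -1.39, adjusted p = 0.00103). Glyma.06G078700 had 38516 and 58010, then 23542 (-1.05, adjusted p = 0.0104), a call lost without replicate 2 and with DESeq2. The omega-6 desaturase gene Glyma.20G111000, whose enzyme makes linoleic acid, had 4824 and 7242, then 1946 (-1.65). Without replicate 2 the fit called 5 falls, 4 of them shared with the fit over all 3 libraries, and DESeq2 called 3.

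**Figure D4:**
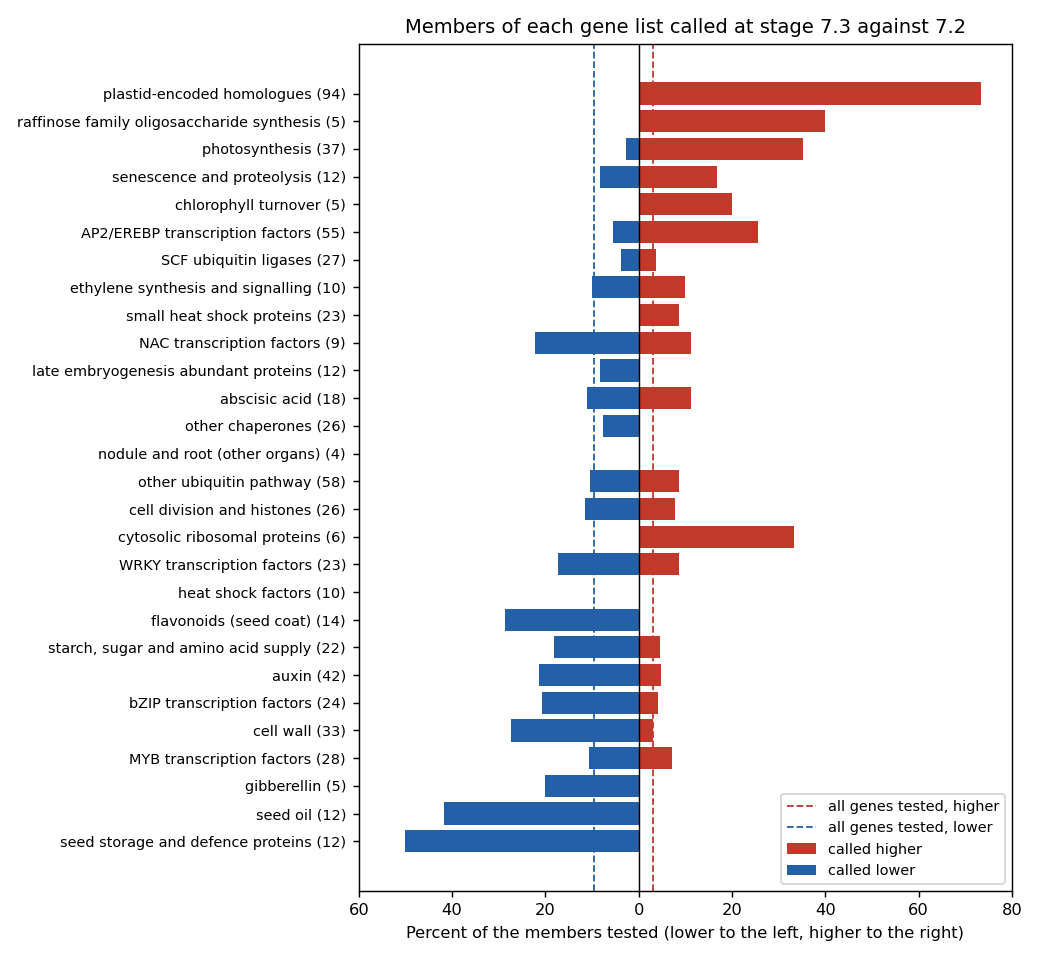
Share of the tested members of each list called higher (red, to the right) or lower (blue, to the left) at stage 7.3, with the number tested in brackets and lists ordered by their median; dashed lines mark the shares over all 30984 genes, 3.07% and 9.61%, below those of the 2619 named genes, 9.89% and 14.7%. The plastid-encoded homologues, raffinose family synthesis, photosynthesis, cytosolic ribosomal protein and AP2/EREBP lists reach furthest to the right, with 73.4%, 40%, 35.1%, 33.3% and 25.5%. The storage and defence protein and seed oil lists reach furthest to the left, with 50% and 41.7%.

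The hexose transporters Glyma.01G238800 and Glyma.01G067600 went from 115 and 174 to 21.4 and from 217 and 256 to 37.1 normalized counts. A non-specific lipid-transfer protein gene (Glyma.01G130200) went from 1852 and 2237 to 257, with 28.8 at stage 8.1 (log2 fold change -3.01, SE 0.171, adjusted p = 2.98e-06). A Rop guanine nucleotide exchange factor (Glyma.01G152100), an activator of small GTPases, had the largest fall of a named gene with a mean of at least 100, from 227 and 356 to 29.3 (-3.32, adjusted p = 6.89e-05). Serine acetyltransferase Glyma.01G160000, of cysteine synthesis, went from 167 and 208 to 41.7, and the remorin-like gene Glyma.01G186300 from 176.5 and 189.8 to 23.6. For the matrix metalloproteinase Glyma.02G028100 the replicates of stage 7.2 stood at 814 and 213, so that its fall to 54.0 (-3.28, adjusted p = 0.00612) was lost with DESeq2. Glyma.04G066900, an F-box gene named for Grr1, fell from 978 and 937 to 195 (-2.32) and stood at 601 at stage 8.1.

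Cell wall genes gave 9 falls (27.3%) and 1 rise (3.03%) of 33 tested, with a median of -0.56. Of named genes, 14.7% fell and 9.89% rose. Most cell wall members were under 100 normalized counts (30 of 43). Xyloglucan endotransglucosylase genes Glyma.17G064900 and Glyma.13G095300 fell from 31.1 and 36.9 to 9.00 and from 284.5 and 276 to 136, the first lost with DESeq2 and the second without replicate 1 of stage 7.2, and an inhibitor of xyloglucan-specific endoglucanase (Glyma.10G180500) rose from 151 and 169 to 459. DESeq2 called only 3 of the falls. Cell division and histone genes gave 2 rises and 3 falls of 26. The flavonoid list, which holds enzymes of seed coat pigments and also of isoflavones, gave 4 falls (28.6%, against 14.7% of named genes) and no rise of 14. Its summed level was 11963, 13160 and 9949. DESeq2 called 1 of its members lower and the fit over 11 libraries 0. The fallers were genes for chalcone isomerase, 2-hydroxyisoflavanone dehydratase, dihydroflavonol-4-reductase and anthocyanidin 3-O-glucosyltransferase, while chalcone synthase 7 (Glyma.01G228700) stood at 3072, 3185 and 3891. In whole seeds fewer cells of a type and less RNA per cell cannot be told apart.

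Genes whose best Arabidopsis match is encoded in the plastid genome formed the most uniform group. This list was put together after the data were seen, and 95 of its 96 genes come from the table chosen for a difference between stage 9 and dried seeds. Of 94 tested, 69 rose (73.4%, against 3.07% of all genes and 9.89% of named genes) and none fell, with a median of 1.63. In 90 of the 94, stage 7.3 lay above both libraries of stage 7.2. Of the 17036 genes with a mean of at least 100, a level most of these homologues did not reach, 9404 lay above both. The ATP synthase alpha homologue Glyma.12G232000 had 296 and 242 normalized counts at stage 7.2 and 965 at stage 7.3 (log2 fold change 1.82, SE 0.14, adjusted p = 1.43e-05). Apocytochrome f (Glyma.12G232900) had 52.6 and 41.0, then 241 (2.33), and the plastid ribosomal protein S2 homologue Glyma.03G031100 had 82.6 and 56.7, then 314 (2.14). DESeq2 called 34 of them and the fit over 11 libraries 36, in both cases all higher.

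The later course of these plastid homologues was uneven. Their summed level was 2774 and 2203 normalized counts at stage 7.2 and 8277 at stage 7.3, then 3523, 19109 and 2075 in stages 8.1, 8.2 and 8.3, with 3633 and 3629 in the last stage, 9. They took 0.0101% to 0.0359% of the counts of the 3 libraries, and 87 of the 96 had a mean under 100 normalized counts. Reads from plastid transcripts and from nuclear copies of the same sequence cannot be told apart here, and whether the share of plastid RNA carried into a library took part in the rise was not tested.

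**Figure D5:**
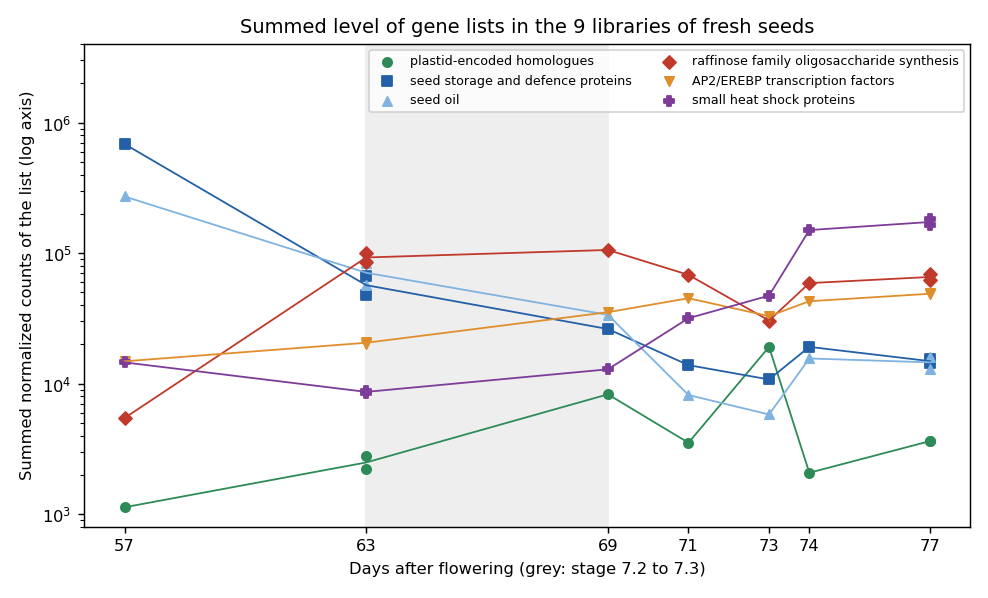
Summed normalized counts (log axis) of 6 gene lists in the 9 libraries of fresh seeds by days after flowering, with 2 points at days 63 and 77 and the interval from stage 7.2 to 7.3 in grey. The storage and defence protein and seed oil lists fall and the AP2/EREBP list rises over the interval. The plastid homologues go from 2774 and 2203 to 8277 and then swing between libraries, and small heat shock proteins rise after the interval.

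The photosynthesis list split along the same line. Of its 37 tested genes 13 rose (35.1%, against 9.89% of named genes) and 1 fell. However, 25 of the 37 have a best match encoded in the Arabidopsis plastid genome. Among the other 12, 1 rose and 1 fell, with a median of -0.37 that became 0.12 with at least 10 counts in every library and -0.06 without replicate 2 of stage 7.2. The riser was Glyma.14G209100, from 11.9 and 10.9 normalized counts to 34.9 (a call lost with DESeq2), which has no Arabidopsis match in the tables but is named for Ycf4, a photosystem I assembly protein that plant plastid genomes encode. Among the others, a Rubisco small subunit gene (Glyma.13G097100), had 2284 and 2592 normalized counts at stage 7.2 and 1727 at stage 7.3 (log2 fold change -0.52, adjusted p = 0.0154), and 374 at stage 8.1. None of the 13 rises was called by DESeq2. Chlorophyll turnover moved little beyond 2-fold: 1 of 5 rose (20%, against 9.89% of named genes). This was the chlorophyll synthase gene Glyma.18G203400, from 40.7 and 43.7 to 93.4, a call lost with DESeq2. Stay-green genes, which act in chlorophyll breakdown, had higher values, with Glyma.11G027400 at 2427, 2676 and 4857 (0.91, adjusted p = 0.00059) and Glyma.01G241600 at 161, 150.2 and 275 (0.80, adjusted p = 0.00327). The chlorophyll b reductase genes (NYC1) Glyma.07G085700 and Glyma.09G191200 had log2 fold changes of -0.39 and 0.02.

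Genes for the protective proteins of the dry state, and heat shock factors, were called no more often than named genes (9.89% higher and 14.7% lower). LEA genes gave 1 fall (8.33%) and no rise of 12, with a median of -0.02. Glyma.20G147600 (seed maturation protein PM25) stood at 137490 and 180750 normalized counts at stage 7.2 and 157846 at stage 7.3, between its replicates. The gene that fell, Glyma.15G149600 (LEA5), had 42.4 and 45.1, then 20.3, a call lost with DESeq2 (adjusted p = 0.382) and after thinning. Heat shock factors gave no call in 10 tested with edgeR and none with DESeq2, and 2 and 1 of them had an unadjusted p under 0.05. The seed factor HSFA9 (Glyma.17G053700) stood at 35759, 43317 and 35599, HSFA3 (Glyma.03G191100) at 134, 109.9 and 194 (log2 fold change 0.64, adjusted p = 0.0231) and HSFA6B (Glyma.03G157300) at 76.4, 77.2 and 120.4 (0.63, adjusted p = 0.0355).

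Small heat shock protein genes gave 2 rises (8.70%, against 9.89% of named genes) and no fall of 23 tested, with a median of 0.08. Their summed level went from 8432 and 8852 normalized counts at stage 7.2 to 12870 at stage 7.3. It then reached 31696 at stage 8.1 and 164359 and 181984 at stage 9. The risers were Glyma.14G214800, a peroxisomal form, from 18.7 and 22.5 to 46.2 (log2 fold change 1.15, adjusted p = 0.0295), and Glyma.04G054400, a cytosolic class II form, from 46.4 and 32.8 to 87.8 (1.12, adjusted p = 0.0118), and neither was called by DESeq2, nor the second without replicate 2 of stage 7.2. Glyma.14G063700 (HSP18.1B) went from 2861 and 3303 to 6180, a log2 fold change of 0.99 (adjusted p = 0.000531) just under the limit. At stage 7.1 this gene, among the 2 highest of the list, stood at 10848. The sum of the list was then 14542, above that of stage 7.3. The class II genes Glyma.17G224900 and Glyma.14G099900, abundant at stage 9 with 176 and 272 and with 2315 and 2438 normalized counts, had at most 3.39 at stage 7.2 and at most 7.88 at stage 7.3, and the first was too low to be tested. Other chaperones gave 2 falls (7.69%) and no rise of 26, both of them genes of DnaJ type.

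SCF ubiquitin ligase genes gave 1 rise and 1 fall of 27 (3.70% each), and other ubiquitin pathway genes 5 rises (8.62%) and 6 falls (10.3%) of 58, which are near or below the shares of named genes. The SCF list was drawn by name and did not hold Glyma.04G066900, the F-box gene named for Grr1, which fell (log2 fold change -2.32). The largest rise among the other ubiquitin pathway genes was a U-box gene (Glyma.13G312800), from 62.2 and 67.6 normalized counts to 264.5 (log2 fold change 2.01, adjusted p = 2.64e-05), with 114 at stage 8.1. A RING finger gene (Glyma.06G076600) went from 139 and 73.75 to 437 and on to 1692 at stage 8.1. Senescence and proteolysis genes gave 2 rises (16.7%) and 1 fall (8.33%) of 12, against 9.89% and 14.7% of named genes. DESeq2 called 1 member higher and 0 lower. The largest rise was in senescence-related gene 1 (Glyma.05G137800), from 7.35 and 9.56 to 57.4 (2.74). Of 6 cytosolic ribosomal protein genes 2 rose (33.3%, against 9.89% of named genes). Glyma.03G189300 (L24) went from 409.5 and 522 to 1178, and was back at 381 at stage 8.1. Glyma.18G050600 (L10B) went from 114 and 68.97 to 286, with 2581 at stage 8.1. The nodule list gave no call in 4 tested, and 0 of them had an unadjusted p under 0.05 with edgeR or with DESeq2.

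The reference genes of the study differed little. Glyma.06G078500 (20S proteasome subunit beta) stood at 753, 769.6 and 703.5 normalized counts, with a log2 fold change of -0.13 (adjusted p = 0.431). Glyma.15G271300 (60S ribosomal protein L6) stood at 3052, 3053 and 4255 (0.46, adjusted p = 0.0215), above both libraries of stage 7.2.

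Genes without a name gave the largest falls and, at a mean of at least 100, the largest rise. That rise was that of Glyma.02G157700, from 83.7 and 66.9 normalized counts to 542.5 (log2 fold change 2.82, SE 0.165, adjusted p = 3.41e-06), with 892 at stage 8.1. Of the genes below, only Glyma.03G214600 and Glyma.15G254700 were taken by the naming rule, as largest changes, and the others were chosen after their values were seen. Exactly 6 genes had at least 100 normalized counts in both libraries of stage 7.2 and 0 at stage 7.3. Glyma.03G214600 had 166 and 192, Glyma.15G254700 had 131 and 211, Glyma.13G047300 had 110.3 and 171, Glyma.03G158700 had 139 and 129, Glyma.11G123900 had 126 and 102 and Glyma.16G080100 had 131 and 132.5. Against the floor of 3 counts they were at least 33.8-fold to 53.0-fold lower. None of them exceeded 3.45 normalized counts at any later stage. The largest fitted rise at any level was in a gene with a name, inositol oxygenase (Glyma.01G005100), which opens the inositol ring, with 0 counts in both libraries of stage 7.2 and 48.4 normalized counts at stage 7.3, at least 25.8-fold higher. Its level was 20.8 at stage 8.1 and 38.0 at stage 8.2.

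These genes too were chosen after their values were seen. Of 207 genes tested with a mean above 10000 normalized counts, 8 rose and 13 fell, and 4 of these 21 had a name. The one with the most counts, Glyma.03G163500, stood at 334319 and 482077 at stage 7.2 and 192899 at stage 7.3 (log2 fold change -1.10, adjusted p = 0.0285), a call lost without replicate 2 and with DESeq2. Glyma.19G236600 fell from 144041 and 176569 to 25648 (-2.66, SE 0.283, adjusted p = 9.63e-05) and stood at 3631 at stage 8.1, and all fits called it. The 34 kDa maturing seed protein gene Glyma.08G116300, which the storage and defence list does not hold, fell from 18762 and 30087 to 9938 (-1.31). That call was lost with DESeq2 and in the fit over 11 libraries. Glyma.03G056000 rose from 49708 and 48714 to 105207 (1.08), back at 53887 at stage 8.1, and Glyma.03G137900 from 32633 and 23072 to 67709 (1.26), with 150266 at stage 8.1. Without replicate 2 of stage 7.2, 6 of the 13 falls remained called.

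The later change, from stage 8.1 (71 days) to stage 9 (77 days), shares no library with this comparison and shows whether the genes moved on. Both libraries of stage 9 lay above that of stage 8.1 for 446 of the 951 higher genes (46.9%, against 39.8% of all genes tested) and below it for 353 (37.1%, against 41.7%). For the 2978 lower genes both lay below stage 8.1 for 1286 (43.2%) and above it for 805 (27.0%), and the other 887 were not on one side. The median log2 differences between stage 9 and stage 8.1 were 0.07 and -0.07, with log2(normalized count + 1). Where the mean reached 100, 354 of 713 lower genes (49.6%, against 41.5% of all genes at that level) lay below, and 233 of 482 higher genes (48.3%, against 45.4%) lay above. For the lower genes as a whole, the 43.2% below is near the 41.7% of all genes, while the 27.0% above is under the 39.8% of all genes. Of all 30984 genes tested, 5745 were not on one side. Stage 8.1 has 1 library, so these shares have no replicate check on that side.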

How the data were processed

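RNA of whole soybean seeds was sequenced in 11 libraries, grouped here by the stage and treatment in their labels. The count table, whole reads per gene, was deposited by the authors without normalization. Bowtie2 is named in the submitters' processing notes, and the counting program is not given in the sources used here. The 1 line without a gene name held 0 counts (0%). Gene names and best Arabidopsis matches came from the study's supplementary tables, of which 1 was held only in part, and 0 identifiers matched the reference table. The members, the 27 lists and the tests were chosen with earlier results of these data known, and 2 lists on plastid homologues were added after seeing the data.

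Genes kept by edgeR's low-count filter were tested with the quasi-likelihood test of edgeR 4.0.16 (R 4.3.3, TMM scaling) on the 3 libraries, with 1 residual degree of freedom moderated over all genes and Benjamini-Hochberg adjustment. Called genes had an adjusted p under 0.05 and at least a 2-fold change. Normalized counts are reads over the size factor of the library (DESeq2 1.42.0), and log2 differences outside the fits used a pseudocount of 1. Named genes were the 12 largest rises and 12 largest falls among called genes with a name and a mean of at least 100, the 3 largest each way with or without a name, every gene the paper names by identifier, and from each list the 2 highest members and the 2 called members with the largest change. Alternatives were DESeq2, DESeq2 size factors in edgeR, no filter, at least 10 counts in every library, fits over 9 and 11 libraries, stricter and looser thresholds, leaving out each replicate and, added after seeing the data, thinning stage 7.2 to the total of stage 7.3. Scripts were tested on simulated data.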

Additional observations from a re-analysis of the deposited data

How the results depend on the processing

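The number of genes called was 3929 in all. It was 1738 with DESeq2, 1279 in the fit over 11 libraries, 2484 at an adjusted p under 0.01 and 9107 with no limit on the fold. Higher genes (951) were 602 with DESeq2, 508 over 11 libraries and 4456 with no fold limit, and between 993 and 1503 when 1 replicate of stage 7.2 was left out, the larger number without replicate 1. Lower genes (2978) were 1136 with DESeq2, 1906 with at least 10 counts in every library, 771 over 11 libraries, 1740 at 0.01 and 4651 with no fold limit. The cause was not tested, except that the stricter filter tested fewer genes. Fits without a replicate of stage 7.2 took their spread from stage 9 alone. DESeq2 size factors, no filter, the fit over 9 libraries and thinning gave totals within 1.5 times the main one, and no value reversed. Of the 87 named genes called, 41 were called in every alternative fit that tested them. Some of these had under 10 counts at stage 7.3 and were not tested with at least 10 counts in every library. The medians of 9 of 29 lists changed sign in some alternative, the largest of these, at 0.367 in size, being photosynthesis genes without plastid homologues. No paired analysis was possible because stage 7.3 has 1 library and shares fewer than 2 replicate numbers with stage 7.2. The lower depth of stage 7.3, 20475504 counts, limits weakly expressed genes most.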
